A study of Homo sapiens with 4 samples.

Results

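The control libraries of this series gave a map of chromosome contacts in SH-SY5Y, an established human neuroblastoma cell line, without TDP-43 knockdown. They are 2 of the 4 libraries in the series, and every pair of 50 kb bins listed for them was used, 89239 pairs in each. The assay was Micro-C, in which chromatin of crosslinked cells is cut between nucleosomes by micrococcal nuclease (MNase) and the ends that lie close together in the nucleus are joined and sequenced. The labels give 5 to 20 U of MNase, name 2 shRNA constructs in a lentiviral vector, shNC and shTDP-43, title these libraries control and "merged", and state puromycin selection for the knockdown cells only. What was merged is not stated, nor whether the replicates are separate cultures, so the spread between them may be technical. No other group was compared with them, and the values below are given for both libraries or as mean ± SD (n = 2), with no test.

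Chromosomes are folded at several scales. Loci that are neighbours along the DNA meet more often than distant loci, loops and domains bring some distant loci together, and active, gene-rich chromatin separates from inactive, gene-poor chromatin. SH-SY5Y is of the noradrenergic (sympathoadrenal) kind of neuroblastoma, has no MYCN amplification, and is described as carrying extra material of 1q, distal 2p, chromosome 7 and 17q. The number of contacts counted in a bin depends on how much of it can be read and mapped, on how many copies the cells hold and on how the nuclease cuts it. These cannot be told apart in a count of contacts.

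Contacts were more numerous in bins with more coding genes, and sequence composition at gene starts went with the level of the bin as a tendency over many starts. The 250 bases before a gene start are shown with each CG dinucleotide (CpG) in capitals. The genes shown are 2 in the highest bins and 2 in the lowest listed bins that hold a gene start. They were chosen after the values were seen, and each gene but TTYH3 has other annotated starts that are not shown. KCNH2 encodes a potassium channel (chr7:150978322-150978571, minus strand), TTYH3 a chloride channel family member (chr7:2631736-2631985, plus strand), FRMPD4 a postsynaptic scaffold protein (chrX:11822189-11822438, plus strand) and GHR the growth hormone receptor (chr5:42548200-42548449, plus strand). The sequences are from RefSeq, build GRCh38.p14, 5′ to 3′ on the gene's strand.
KCNH2: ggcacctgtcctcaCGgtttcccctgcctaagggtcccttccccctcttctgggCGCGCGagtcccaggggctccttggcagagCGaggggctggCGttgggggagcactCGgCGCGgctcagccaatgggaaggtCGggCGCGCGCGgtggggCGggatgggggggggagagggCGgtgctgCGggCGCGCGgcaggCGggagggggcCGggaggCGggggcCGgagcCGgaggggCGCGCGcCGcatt
TTYH3: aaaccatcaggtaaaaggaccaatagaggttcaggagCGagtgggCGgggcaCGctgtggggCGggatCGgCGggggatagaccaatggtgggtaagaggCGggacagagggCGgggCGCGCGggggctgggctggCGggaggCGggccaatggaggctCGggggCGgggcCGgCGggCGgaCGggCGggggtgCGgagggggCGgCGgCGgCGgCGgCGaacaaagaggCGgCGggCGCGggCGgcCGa
FRMPD4: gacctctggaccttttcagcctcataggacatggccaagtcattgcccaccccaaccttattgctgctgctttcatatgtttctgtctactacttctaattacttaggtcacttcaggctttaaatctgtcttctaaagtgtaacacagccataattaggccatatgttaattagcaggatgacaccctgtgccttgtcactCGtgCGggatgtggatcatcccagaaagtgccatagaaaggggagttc
GHR: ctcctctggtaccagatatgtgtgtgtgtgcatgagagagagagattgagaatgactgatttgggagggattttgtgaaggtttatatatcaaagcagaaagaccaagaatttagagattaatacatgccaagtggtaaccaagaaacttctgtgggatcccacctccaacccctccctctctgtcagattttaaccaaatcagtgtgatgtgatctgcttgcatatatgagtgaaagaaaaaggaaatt
The KCNH2 window held 29 CpG at 77.2% GC and its bin 273 CPM (counts-per-million, here of the listed contacts of the same library). Another KCNH2 start in the same bin had 4 CpG at 38.4% GC, and 2 ATG9B starts in a bin of 246 CPM had 1 CpG each, so high bins also held starts poor in CpG. The TTYH3 window held 33 CpG at 75.6% GC, in a bin of 246 CPM. The FRMPD4 window held 2 CpG at 45.2% GC, in a bin of 1.11 CPM, and the GHR window held 0 CpG at 40.4% GC, in a bin of 1.23 CPM.

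The tendency was measured over the 22132 windows of coding gene starts that the promoter table places. CG, searched as these 2 letters, reads the same on both strands. In the lowest decile of starts by the level of their bin, at 1.11 to 5.01 CPM, the median window had 45.2% GC and 3 CpG, and 28.0% of windows had 10 or more CpG. In the next decile these were 56.8%, 13 CpG and 58.4%. From the fifth decile on, starting at 15.9 CPM, the values were nearly level, from 64.0% GC, 20 CpG and 76.5% of windows to 67.6% GC, 20 CpG and 74.4% in the highest decile, against 65.5% of all windows. Across 20845 windows in listed bins, Spearman's rho with the level of the bin was 0.374 for GC and 0.266 for CpG, as a description: windows of 1 bin share its level.

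The list held 158400914 contacts of control 1 and 163147992 of control 2, and a pair of bins had 88 to 42233 contacts in control 1 and 59 to 48389 in control 2. The median bin had 1141 within-bin contacts in control 1 (exact Poisson 95% interval 1075.75 to 1209.18) and 1116 in control 2 (1051.48 to 1183.45), and these intervals cover counting error only. The libraries differed by more than this. In the lowest decile of bins the log2 ratio of the libraries had an SD of 0.334 where counting alone gives 0.125, and in the highest decile 0.0644 where counting gives 0.0188. The median ratio of control 2 to control 1 ran from -0.105 (log2) in the third decile to 0.04 in the highest, so high bins stood slightly higher in control 2. Of the listed pairs, 48929 were within a bin, 40238 joined bins of 1 chromosome, 1 joined 2 chromosomes and 71 touched scaffolds outside the 23 chromosomes with contacts. The Y chromosome had 0 pairs.

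Within-bin contacts varied far more along the genome than between libraries. The median listed bin had 7.20 CPM in control 1 and 6.84 in control 2 (7.02 ± 0.257). The 10th percentile was 2.04 and 1.91 CPM and the 90th percentile 46.8 and 47.0 CPM, a ratio of 22.9 and 24.7. The highest 10% of bins held 48.0% of all within-bin contacts and the highest 1% held 9.12%. Adjoining bins had like levels: the Pearson correlation of log2 levels over 45507 neighbouring bins was 0.827, again as a description, since neighbours share genes and mapping.

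Of the 60550 bins of the chromosomes, 48929 (80.8%) were listed. Bins that overlap a protein-coding gene were listed in 91.9% of 33520 and bins without one in 67.0% of 27030. Outside unlisted runs of 1 Mb or more, 79.8% of 22702 gene-free bins and 87.9% of all 55650 bins were listed. Since the list begins at a minimum mean abundance over all 4 libraries of the series, an unlisted bin may hold contacts below that minimum or may have been left out for another reason. The 56 unlisted runs of 1 Mb or more held 42.2% of the 11621 unlisted bins, and 25 of these runs held no coding gene. Of the 19974 coding genes, 18701 (93.6%) had a listed bin and 1273 had none.

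The runs below were named after their values were seen: the 9 with most coding genes and 1 with fewer. The run with most of them was chr6:28500001-33450000, 4.95 Mb with 170 coding genes, which spans the major histocompatibility complex that encodes antigen-presenting proteins. The run at chr17:35800001-38800000 held 53 coding genes, among them the CC chemokines CCL3, CCL4 and CCL5, which attract leukocytes. Immune receptors of the LILR family lay in chr19:54050001-55050000 (40 coding genes), beta-defensins, antimicrobial peptides, in chr8:7400001-8200000 (34), CHRNA7, a nicotinic receptor gene, and GOLGA8 copies in chr15:28950001-32950000 (27), and bitter taste receptors of the TAS2R family in chr12:10750001-11400000 (22). The run at chr5:69250001-71600000 (23 coding genes) held SMN2, a nearly identical copy of the motor neuron gene SMN1, and that at chr16:14450001-17000000 (23) held NPIPA copies. The run at chr17:45350001-46900000, with 14 coding genes, held MAPT, which encodes tau, and KANSL1. The run at chr14:92900001-94400000 held 22 coding genes, among them CHGA, a granin of chromaffin vesicles. Of the 22 alternative scaffolds with a listed contact, 1 each belonged to chromosomes 6, 17 and 19, and whether alternative sequence took the reads of these runs was not tested.

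Chromosomes differed in level and in how much of them was listed. Gene-dense chromosome 19 had the highest median within-bin level, 31.7 CPM in control 1 and 32.4 in control 2, followed by chromosome 22 (27.7 and 27.9) and chromosome 17 (22.5 and 21.7). The X chromosome had the lowest, 3.41 and 3.20 CPM, and chromosome 4 the next, 3.88 and 3.61. The order of these 5 was the same in both libraries. Chromosomes 7 and 20 had the largest share of listed bins, 92.0% and 91.8%, and the acrocentric chromosomes 14 (59.8%) and 21 (61.5%) the smallest. Outside unlisted runs of 1 Mb or more, chromosomes 14 and 21 had 86.5% and 82.0%, and the X chromosome had the smallest share, 71.8%.

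Gene content went with the level at every step. The median listed bin without a coding gene had 3.66 ± 0.191 CPM, with 1 gene 8.14 ± 0.284, with 2 genes 18.6 ± 0.273, with 3 genes 34.5 ± 0.149, with 4 genes 64.7 ± 0.561 and with 5 genes 82.9 ± 2.69. The 114 listed bins with 6 or more genes had 95.02 ± 0.527 CPM. Each step was larger than the SD between the libraries, yet the bins of a class overlapped those of the next: the quartiles of 1-gene bins were 3.79 and 18.7 CPM and those of 2-gene bins 9.06 and 41.1. Spearman's rho between the number of coding genes and the level was 0.444 in control 1 and 0.445 in control 2 over 48929 bins, which are not independent.

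**Figure D1:**
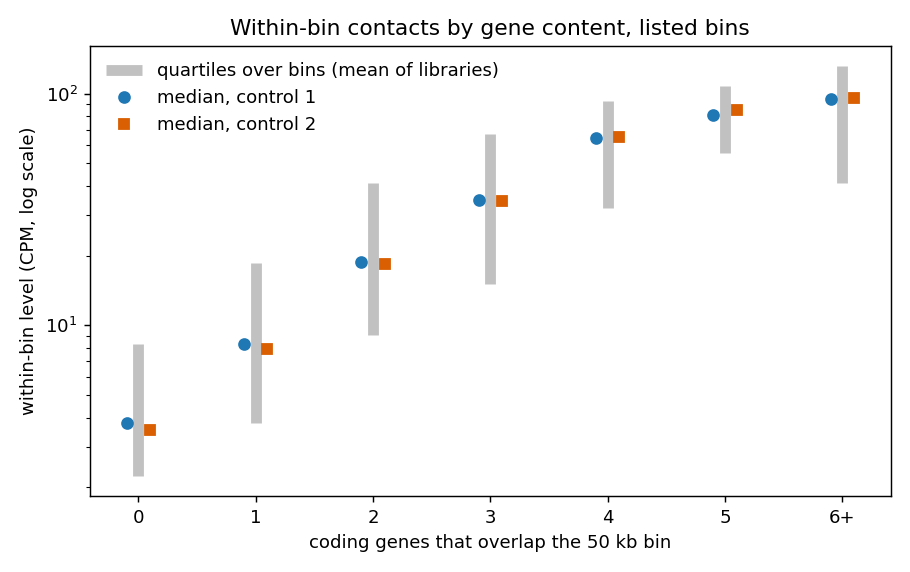
Within-bin level (CPM, log scale) of listed 50 kb bins by the number of coding genes that overlap them; circles and squares are the medians of control 1 and control 2, and grey bars span the quartiles over bins. Medians climb from 3.66 CPM at 0 genes to 95.02 CPM at 6 or more, with overlapping quartiles.

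The level also differed with position within and around genes. Bins with 1 coding gene had a median of 13.2 ± 0.148 CPM where a gene start was placed in the bin and 6.53 ± 0.264 CPM where none was. Some genes have no placed start, so bins without one may still hold a start. Gene length was not separated from this difference. Gene-free bins were graded by distance to the nearest gene-bearing bin: 6.68 ± 0.254 CPM for adjoining bins, 4.05 ± 0.186 at 100 to 200 kb, 2.91 ± 0.149 at 250 to 450 kb and 2.34 ± 0.132 at 500 kb or more. Their listed share fell in the same order, from 90.5% to 63.7%, so the medians of distant bins leave out more of the low ones.

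Bins near chromosome ends stood above the interior at equal gene number. Within 5 Mb of an end the median bin had 29.5 ± 0.0534 CPM and elsewhere 6.40 ± 0.241. Gene-free bins had 14.2 CPM near ends and 3.49 in the interior, bins with 1 gene 29.7 and 7.56, bins with 2 genes 53.9 and 16.8, and bins with 3 genes 68.9 and 30.6. Of gene-free bins 62.8% were listed near ends and 67.3% in the interior, and with unlisted bins counted as low their medians were 4.63 and 2.23 CPM. These values include unlisted runs of 1 Mb or more, near ends the whole first 5 Mb of chromosomes 13, 14, 15, 21 and 22. GC content of the bins, which is high near many chromosome ends, was not analysed here, and its part in these differences was not tested.

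Contacts became scarce quickly with distance. Pairs of adjoining bins (50 kb) held 9.34% of listed contacts in control 1 and 9.30% in control 2, pairs at 100 to 150 kb 3.51% and 3.54%, pairs at 200 to 450 kb 1.98% and 2.00%, and pairs at 500 to 950 kb 0.205% and 0.207%. Pairs 1 Mb or more apart held 0.0138% and 0.0137%. These shares are of listed contacts: pairs with few contacts are not in the list, so distant contacts are undercounted and the decay over all bins cannot be read from it.

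The decay was therefore followed among bins in the highest decile by within-bin level, for which the list is most complete. All 3271 pairs of such bins at 50 kb were listed, 95.8% at 100 kb, 79.7% at 150 kb, 60.9% at 200 kb, 45.1% at 250 kb and 6.91% at 500 kb. Their median level, unlisted pairs counted as low, was 73.7 ± 1.01 CPM within a bin, 10.7 ± 0.176 at 50 kb, 3.82 ± 0.0346 at 100 kb, 2.52 ± 0.053 at 150 kb and 1.87 ± 0.0182 at 200 kb. From 50 to 200 kb the log-log slope was -1.26 in control 1 and -1.27 in control 2. Each of these levels lay below the one before it by far more than the SD between the libraries.

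**Figure D2:**
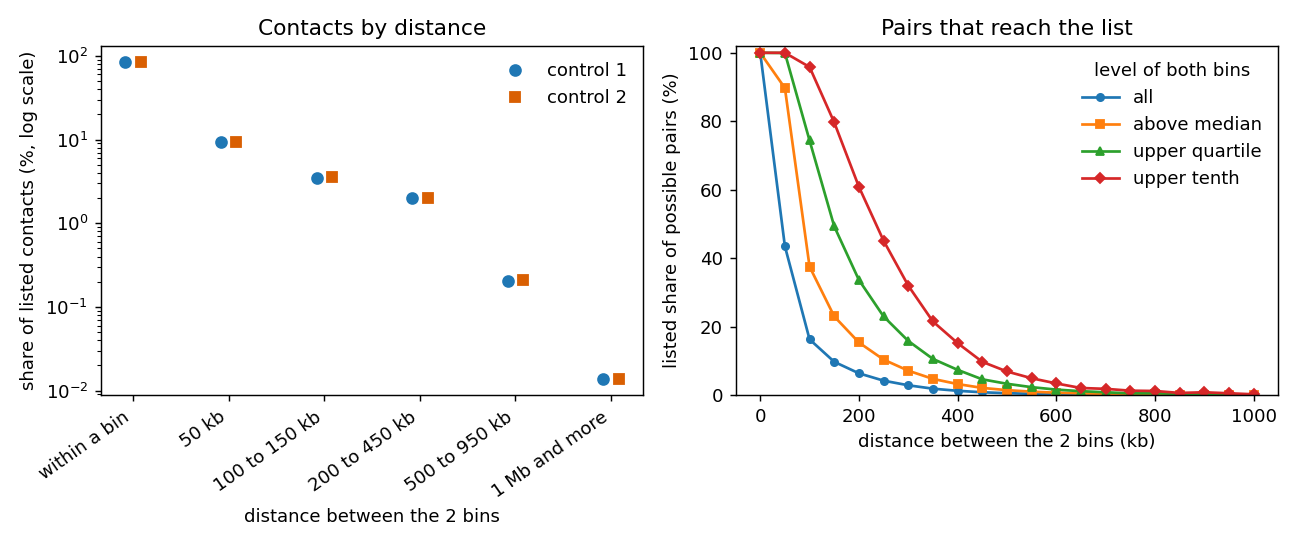
Left, share of listed contacts (%, log scale) by distance between the 2 bins in control 1 and control 2. Right, listed share of possible bin pairs (%) against distance (kb) for all listed bins and for pairs whose bins both lie above the median, in the upper quartile or in the upper decile of within-bin level; the upper decile is listed at 95.8% at 100 kb and 6.91% at 500 kb.

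Levels along the chromosomes were compared after each bin's log2 level was set against the median of listed bins with the same number of coding genes. On this scale 0 is the typical bin, and the result is a level of contacts, not a copy number. In interior bins, 5 Mb or more from chromosome ends, the highest of 41 arms were chromosome 22 (1.05 in control 1 and 1.10 in control 2), 20q (1.03 and 1.06) and 17q (0.87 and 0.90). The lowest were 4q (-0.69 in both) and Xq (-0.92 in both).

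Arms described as gained in SH-SY5Y lay in the upper part of this order. Arm 17q ranked 3, 1q ranked 8 (0.54 and 0.52), 7p ranked 11 (0.42 and 0.44) and 7q ranked 18 (0.15 in both). The median of these 4 arms was 0.48, with a range of 0.15 to 0.89, and the median of the 37 other arms was -0.05, with a range of -0.92 to 1.07, so the groups overlapped. The other arms include 2p (0.42 in control 1 and 0.40 in control 2), of which the distal part is described as gained. Gene-free bins alone gave 5.37 CPM (4.34 to 7.79) for the 4 arms and 3.17 CPM (1.39 to 9.34) for the others. Of their gene-free bins 93.2% (92.2 to 96.5%) and 82.3% (55.4 to 98.0%) were listed. Unlike the adjusted levels, these gene-free values include bins near chromosome ends. They leave out unlisted runs of 1 Mb or more and count other unlisted bins as low.

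**Figure D3:**
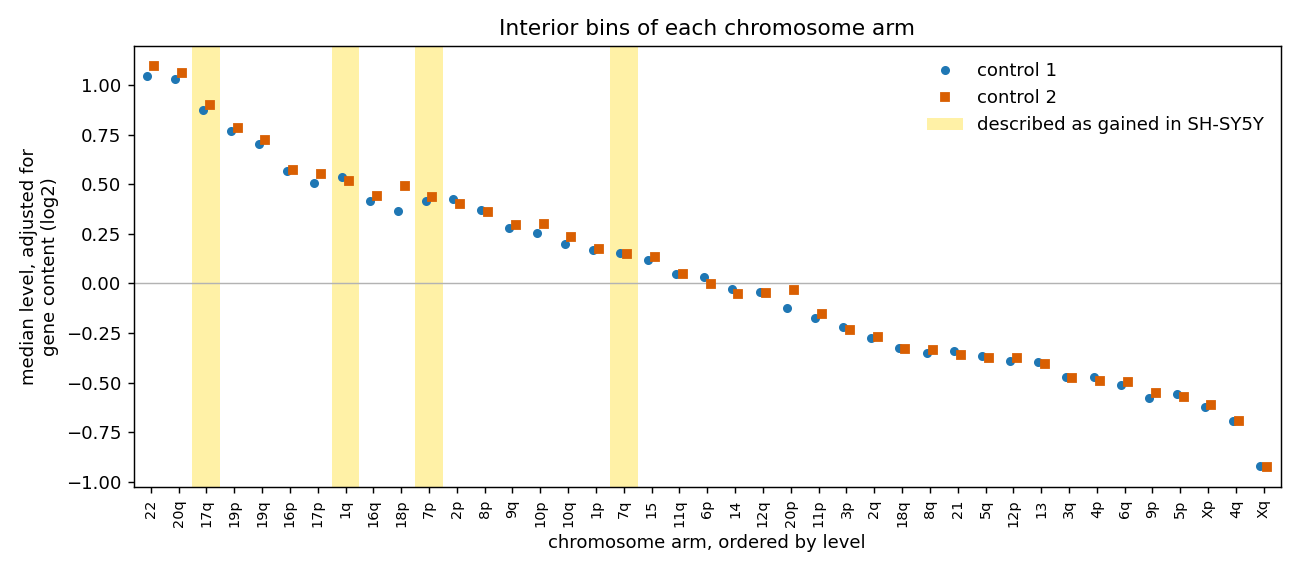
Median level of interior bins, adjusted for the number of coding genes (log2), for 41 chromosome arms in order of level, in control 1 (circles) and control 2 (squares); yellow bands mark 17q, 1q, 7p and 7q. The marked arms lie between 0.15 and 0.89, among arms that span -0.92 to 1.07.

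Within 2p and 17q the outer part stood above the inner part in both libraries. The other arms were not split this way. In the segmentation below, the last segment stood above the one before on 14 of the 15 chromosomes with a step. Within 45 Mb of a chromosome start, 6 steps were downward. Whether the contrast within 2p and 17q goes beyond this was not tested. The outer 45 Mb of 2p, a round figure chosen for this description that holds MYCN and ALK, had an adjusted level of 0.94 in control 1 and 0.92 in control 2, and the rest of the arm -0.20 and -0.21. Gene-free bins had 7.44 and 6.82 CPM in the outer part and 2.33 and 2.13 CPM in the rest. The outer part of 17q, beyond the arm's midpoint, had 1.27 and 1.32 and the inner part 0.51 and 0.55. Its gene-free bins were at 14.4 and 11.9 CPM, against 4.49 and 4.303 CPM in the inner part. The adjusted levels of these parts are of interior bins. The gene-free values include bins within 5 Mb of an end, where levels are higher, and count unlisted bins as low. Only the outer parts hold a chromosome end, so the gene-free contrasts include that difference. Chromosome 7 stood at 0.35 and 0.38 over all its listed bins and at 0.25 and 0.26 over its interior bins.

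Segmentation of the medians of 2773 windows of 1 Mb gave 27 steps on 15 chromosomes, each with the same sign in both libraries. The count depends on the settings: it was 44 without the adjustment, 18 in gene-free bins, 15 with 2 Mb windows and 13 with a stricter penalty. The largest was upward on chromosome 2 near 231 Mb, by GPR55, SPATA3 and C2orf72, of 2.73 (log2) in control 1 and 2.79 in control 2. On chromosome 4 the level fell by 2.53 and 2.60 near 10 Mb, at SLC2A9, a urate transporter gene, and on chromosome 7 by 2.38 and 2.40 near 10 Mb. It rose by 2.17 and 2.26 on chromosome 9 near 126 Mb, at PBX3, a homeobox gene, by 2.16 and 2.23 on chromosome 14 near 89 Mb, and by 1.95 and 2.05 on chromosome 7 near 148 Mb, at CNTNAP2, a neuronal adhesion gene. On chromosome 8 it rose by 1.96 and 2.02 near 133 Mb, at TG, the thyroglobulin gene, and SLA. The other large steps were downward on chromosome 11 near 80 Mb (-2.09 and -2.15) and upward on chromosome 6 near 156 Mb (1.95 and 1.98).

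On chromosome 17 the segment mean rose from 0.73 to 2.81 near 72 Mb, a step of 2.05 in control 1 and 2.11 in control 2. On chromosome 2 it fell from 1.55 to 0.17 near 32 Mb, at MEMO1 and DPY30, a step of -1.35 and -1.38. On chromosome 1 it rose from -0.18 to 0.97 near 200 Mb, at NR5A2, a nuclear receptor gene, by 1.13 and 1.16.

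A change from 2 to 3 copies would be 0.58 on the log2 scale, and the smallest step was 0.73 in size. The noise of a single window, taken from differences between neighbouring windows, was 0.61 (SD). The SD over all window levels was 1.18, and the SD within a segment ran from 0.50 to 1.78. Segments of gains and of the gene-dense or GC-rich ends were not separated here, and the part of copy number in any step was not tested.

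**Figure D4:**
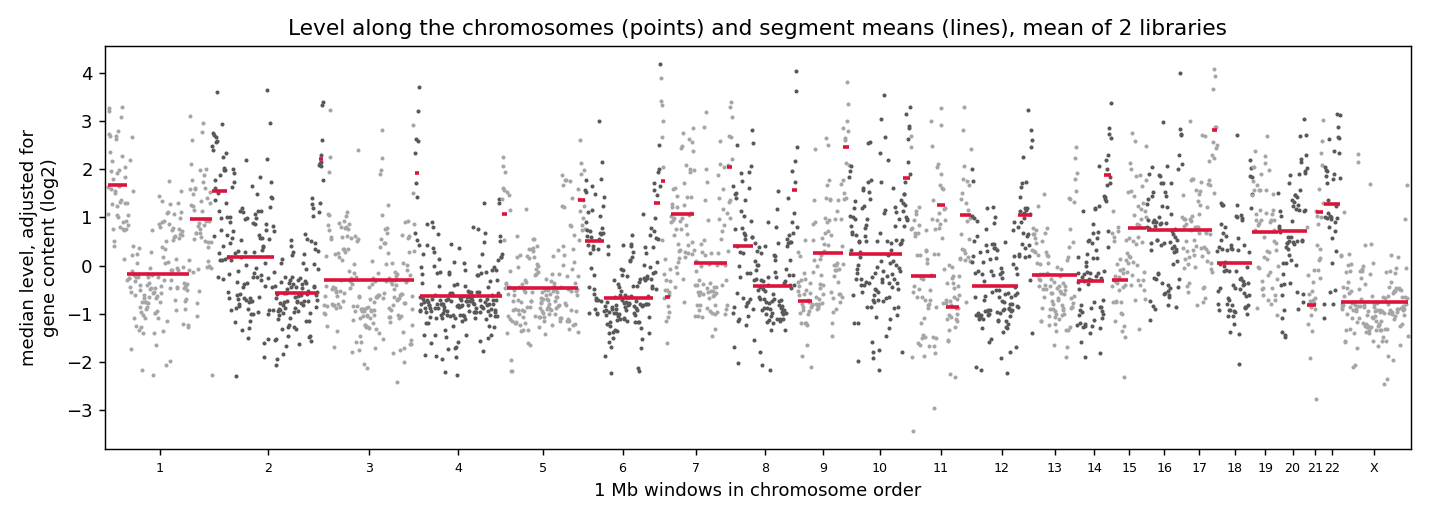
Median level of 1 Mb windows, adjusted for the number of coding genes (log2, mean of both libraries), in chromosome order; grey shades alternate between chromosomes and red lines are segment means. The last segments of chromosome 2 and chromosome 17 lie at 2.204 and 2.81.

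The 100 bins with most contacts lay on 22 arms, 31 of them on 17q. The highest on average was chr17:81400001-81450000, inside BAHCC1, a chromatin reader gene, with 266 CPM in control 1 and 297 in control 2. The next, chr17:81300001-81350000, overlaps no coding gene and had 267 and 284 CPM, so it ranked 1 in control 1 and 2 in control 2. Both belong to a stretch, chr17:81300001-81550000, that also holds ACTG1, which encodes cytoplasmic gamma-actin. The next stretch, chr7:150950001-151150000 (264 and 282 CPM), holds KCNH2, whose promoter is shown above, the nitric oxide synthase gene NOS3 and CDK5, a neuronal kinase gene. Then came chr7:2500001-2550000 with LFNG, a glycosyltransferase gene of the Notch pathway (246 and 267 CPM), and chr7:1400001-1550000 with MICALL2 and INTS1 (238 and 270 CPM). In each of these 5 control 2 was higher than control 1.

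Then followed chr7:2600001-2650000 with IQCE and TTYH3 (238 and 254 CPM). CACNA1G, a T-type calcium channel gene, lies in chr17:50550001-50650000 (234 and 248 CPM), RBFOX3, which encodes the neuronal splicing factor NeuN, in chr17:79100001-79200000 (226 and 247 CPM), and CAMK2B, a neuronal kinase gene, in chr7:44200001-44300000 (230 and 231 CPM). ANAPC11 and PCYT2 lie with 5 other coding genes in chr17:81900001-81950000 (224 and 249 CPM). SAMD11 and NOC2L lie in chr1:900001-950000 (216 and 235 CPM). BAIAP2 and AATK lie in chr17:81050001-81200000 (224 and 239 CPM).

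Arm 17q, with 31 of the 100 highest bins, has 2.05% of listed bins; 17 lay on 7p (2.32%) and 9 on 7q (3.67%). Within 5 Mb of a chromosome end lay 55 of them, against 7.54% of listed bins, and 1 of them was gene-free, against 37.0% of listed bins. Both libraries had 88 of the 100 among their own highest 100.

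The lowest listed bins that hold a coding gene lay near the minimum abundance at which the list begins. Of gene-bearing bins 91.9% were listed, and the unlisted ones may be lower. The lowest was in IL1RAPL2 on the X chromosome, a synaptic receptor gene, with 0.865 CPM in control 1 and 1.21 in control 2. LHFPL1 on the X chromosome had 1.03 and 1.07 CPM, RIT2 on chromosome 18, a neuronal GTPase gene, 1.34 and 0.846 CPM, and GRIP1 on chromosome 12, a glutamate receptor scaffold gene, 1.14 and 1.08 CPM. ADGRB3 on chromosome 6 was at 1.06 and 1.28 CPM. At 137 to 212 contacts per library in the first 4 of these, their order is within the spread between the libraries.

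Contacts between adjoining bins were strongest where the bins themselves were high. CACNA1G crosses the strongest pair, chr17:50550001-50600000 with chr17:50600001-50650000, at 7627 contacts in control 1 and 8098 in control 2 (48.9 ± 1.05 CPM). Next came the pair at SPEG, GMPPA and OBSL1 on chromosome 2 (44.4 and 42.9 CPM) and that from NOS3 to CDK5 on chromosome 7 (37.8 and 41.1 CPM). The pair at CACNA1G was above both others in each library.

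At 100 kb the strongest pair joined a gene-free bin, chr17:49850001-49900000, to chr17:49950001-50000000 with the homeobox genes DLX4 and DLX3, at 3907 and 4047 contacts (24.7 ± 0.0993 CPM). This was 19.5% and 18.6% of the geometric mean of the within-bin contacts of its 2 bins, against a median of 4.63% for pairs at 100 kb among bins of the highest decile. HGS and P4HB on 17q (19.4 and 20.0 CPM) and CCNK and CCDC85C on chromosome 14 (17.3 and 20.0 CPM) followed, and in these the libraries' ranges overlapped.

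At 150 kb, SNAP47 and WNT9A, a Wnt ligand gene, on 1q gave 17.63 and 17.003 CPM. MEGF6 on chromosome 1 gave 15.8 and 15.3 CPM. Both lie on chromosome 1.

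At 200 to 450 kb the strongest pair joined RHOB, a small GTPase gene, to HS1BP3 on 2p, chr2:20400001-20450000 with chr2:20600001-20650000, at 3281 and 3539 contacts (20.7 and 21.7 CPM). It exceeded every listed pair at 150 kb. Within RBFOX3 a pair 200 kb apart had 18.4 and 16.7 CPM. The bin of RET, the receptor tyrosine kinase for GDNF-family ligands, met a gene-free bin 200 kb away at 17.4 and 14.9 CPM. The values of the RBFOX3 and RET pairs overlapped between libraries.

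At 500 kb or more, the bin of ENDOV met the bin of RPTOR and CHMP6 on 17q, 550 kb away, at 2212 and 2457 contacts (13.96 and 15.1 CPM). On chromosome 9, CRAT and PTPA met NTMT1 at 500 kb with 10.7 and 12.3 CPM. On chromosome 7, COL26A1 met CUX1 and SH2B2, an adaptor protein gene, at 750 kb with 9.65 and 10.4 CPM. The pair on 17q was above the other 2 in both libraries.

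Ranked by contacts relative to the within-bin contacts of the 2 bins, other pairs led, many of them with a low bin at an end. At 50 kb a pair in RORB, a nuclear receptor gene on chromosome 9, reached 60.01% and 68.3% with 635 and 686 contacts, and a gene-free pair on chromosome 15 reached 59.2% and 58.7%. At 100 kb a pair at TPPP and ZDHHC11 on chromosome 5 had 26.3% and 28.3%. At 150 kb BCAR1 met CFDP1 on chromosome 16 at 23.3% and 23.8%, and SIK2 met PPP2R1B on chromosome 11 at 17.3% and 23.5%. ZDHHC11 has a close copy, ZDHHC11B, in the other bin of its pair, so reads of this pair may be misplaced.

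At 200 to 450 kb, NSG2, a neuronal vesicle gene on chromosome 5, met a gene-free bin at 22.6% and 26.8%, SRGAP1 met C12orf56 on chromosome 12 at 20.5% and 23.8%, and the forkhead genes FOXE3 and FOXD2 on chromosome 1 met a gene-free bin at 23.6% and 20.4%. At 500 kb or more, DTX2 on chromosome 7 met a bin without a coding gene at 61.8% and 64.4% with 607 and 636 contacts and no listed neighbouring pair; DTX2P1, a pseudogene copy of DTX2, lies in that other bin, so reads of this pair may be misplaced. The bins at both ends of MECOM, a transcription factor gene on chromosome 3, met over 550 kb at 26.5% and 28.5%. ACTR3C met DPP6 on chromosome 7 over 4050 kb at 25.1% and 20.8%. No neighbouring pair was listed for the last 2 either.

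Of the 905 pairs 500 kb or more apart on 1 chromosome, 558 had a coding gene at both ends and 347 at 1 end or none. Of all listed bins 37.0% were gene-free. The same count over shorter pairs is not given, so 558 is not read as a trait of long pairs. The median within-bin level of the bins of the 905 pairs was 72.4 CPM, about that of the highest decile of bins. A listed neighbouring pair was absent for 191 and 3 or more were listed for 418. Chromosome 7 held 130 of them (14.4%, against 5.99% of listed bins) and chromosome 17 held 97 (10.7%, against 2.90%). Only 64 pairs were 1 Mb or more apart and 4 were over 2 Mb apart.

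Long pairs often adjoined each other. The 8704 pairs 200 kb or more apart fell into 2370 blocks, of which 1135 were a single pair and 200 held 10 or more. The largest, 104 pairs, was chr8:141450001-142550000 with TSNARE1 and ADGRB1, an adhesion receptor gene. The next were chr7:1450001-2500000 (95 pairs), which holds the mitotic checkpoint gene MAD1L1, and chr17:73150001-74250000 (78 pairs), which holds SDK2, a synaptic adhesion gene.

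The longest listed pairs were named after their values were seen. Chr16:29150001-29200000 met chr16:88100001-88150000, the bin of ZNF469, over 58950 kb with 432 contacts in control 1 and 368 in control 2. The next joined chr16:34550001-34600000 and chr16:46350001-46400000 on both sides of the centromere, with 126 and 99 contacts. No neighbouring pair was listed for either. In the pair across the centromere, the first bin had no listed within-bin contacts and the other had 0.459 CPM, the lowest listed level. Whether reads of these pairs on chromosome 16 are misplaced was not tested. A bin at chr7:25850001-25900000 met the HOXA bin chr7:27150001-27200000 over 1300 kb with 493 and 487 contacts. ID2, an inhibitor of helix-loop-helix factors, met a gene-free bin over 1250 kb with 277 contacts in control 2 and 273 in control 1, and GFRA2, a co-receptor gene of the GDNF family, met one over 1350 kb with 246 and 278. Of the 27 pairs 1.2 Mb or more apart, 18 had no listed neighbouring pair.

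Some of the longest pairs join near-identical genes, so their reads may be misplaced. CCDC74B and CCDC74A (1400 kb apart on chromosome 2, 545 and 574 contacts) are such a pair, as are TUBA3E and TUBA3D (1300 kb, 491 and 560 contacts). The only listed pair between chromosomes joined chr17:62450001-62500000, the bin of METTL2A and TLK2, to chr7:128500001-128550000, the bin of METTL2B, with 256 and 239 contacts (1.54 ± 0.107 CPM). METTL2A and METTL2B are close copies of a tRNA methyltransferase gene.

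Gene lists were set against all coding genes, a gene's level being the median of the listed bins that its body overlaps. The median gene had 21.02 CPM. Of all 18701 listed coding genes 39.5% lay above 1.5 times this level and 38.7% below its inverse, the level divided by 1.5, and the counts below are read against these shares. A contact level is not expression.

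Genes of noradrenergic identity had a median of 40.6 CPM in control 1 and 41.0 in control 2, and 15 of the 22 listed (68.2%) lay above 1.5 times the median gene and 1 below. TH, which encodes tyrosine hydroxylase of the catecholamine pathway, had 184 and 204 CPM, and GATA2, a transcription factor, 182 and 202 CPM. These are levels of bins shared with other genes, INS and INS-IGF2 for TH and DNAJB8 for GATA2. The TH bin also lies within 5 Mb of a chromosome end, where levels were higher. RET had 128 and 134 CPM and DBH, which makes noradrenaline, 126 and 134 CPM. Of the core transcription factors, PHOX2A had 101.6 and 98.6 CPM, HAND2 90.6 and 91.4, GATA3 59.2 and 61.6 and ISL1 28.2 and 27.9. The lowest was KLF7 (10.5 and 9.27 CPM), and the bin of CHGA was unlisted, in the run on chromosome 14 named above.

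Mesenchymal-identity genes, the other cell state of neuroblastoma, had a median of 12.98 and 12.4 CPM, with 7 of 20 above and 10 below. COL1A1, a collagen gene, had 120 and 123 CPM and FOSL1, an AP-1 factor, 104 and 109, whereas COL3A1 had 3.88 and 3.21 and RUNX2 5.59 and 4.54. VIM had 20.9 and 21.2 CPM, PRRX1 11.5 in both and FN1 10.2 and 10.4. With levels adjusted for gene number this list stood 0.10 (log2) above the median gene, the opposite direction.

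Of 25 genes known in neuroblastoma, 10 (40%) lay above and 6 (24%) below. ODC1, the polyamine synthesis enzyme, had 137 and 141 CPM, BIRC5, which encodes survivin, 125 and 133 and CHD5, a 1p tumour suppressor, 104 and 105. MYCN, the oncogene, had 53.8 and 53.3 CPM and ALK, a receptor kinase mutated in this cancer, 19.3 and 19.7. BARD1, NF1 and ATRX were lowest, at 3.50 and 3.75, 4.63 and 4.003, and 4.71 and 4.16 CPM.

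Long genes had the lowest medians over gene bodies, without adjustment. The 20 giant fragile-site genes, which break under replication stress and span a median of 32 bins, had a median of 3.13 and 2.74 CPM, with 0 above and 20 below. WWOX, an oxidoreductase gene, had 10.2 and 9.75 CPM and NAALADL2, among the lowest, 2.29 and 1.87 CPM. Of 20 long neuronal genes 19 lay below, with CNTN5, an adhesion gene, at 1.77 and 1.78 CPM. PTPRN2, a secretory-vesicle protein gene near the end of 7q, was the exception at 74.2 and 76.2 CPM. Adjusted for gene number, long neuronal (-1.85) and giant fragile-site genes (-1.76) lay above protocadherins (-3.37), olfactory receptors (-3.13) and histone genes (-2.08). In the bin of the gene start the giant genes stood at -1.24 (log2) against the median gene, in place of -2.84.

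HOX genes, which set position along the body axis, had the highest median of the 15 lists without adjustment, 1.95 (log2) above the median gene. Adjusted for gene number they stood 0.26 above it, below noradrenergic (1.76), housekeeping (1.01), chromatin architecture (0.89) and neuroblastoma genes (0.80). All 39 were listed, in bins they share (15 distinct bins), with a median of 77.9 and 84.3 CPM; 35 lay above and 0 below. In the HOXA cluster the 3 bins from HOXA2 to EVX1 had 78.4, 167 and 90.7 CPM, and in the HOXC cluster the 4 bins from HOXC13 to the last bin of HOXC4 had 21.8, 117, 109 and 35.3 CPM, as means of the libraries. Levels thus peaked inside both clusters, and the SD between libraries was at most 11.4 CPM.

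Of the other clustered families, olfactory receptors, protocadherins and zinc finger genes of chromosome 19 were low. Olfactory receptors, of which 249 of 390 were listed, had a median of 3.15 and 2.86 CPM, with 238 below and 3 above, OR1F1 being highest (50.0 and 52.0). The 53 clustered protocadherins, neuronal adhesion genes in 15 distinct bins, had 8.34 and 9.15 CPM with 31 below, the PCDHGC3 to PCDHGC5 end reaching 40.1 and 40.2. Zinc finger genes of chromosome 19 had 10.4 and 10.1 CPM with 171 of 240 below, although their chromosome had the highest median bin. Members of these families resemble each other, and how reads of similar copies were placed is not stated.

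Housekeeping genes had a median of 47.3 and 46.2 CPM, with 11 of 18 listed above; ACTB, which encodes beta-actin, had 160 and 161 CPM and PGK1, a glycolysis gene, 10.7 and 9.08. Cytosolic ribosomal protein genes had 35.1 and 35.7 CPM, with 43 of 76 above, RPS21 (172 and 189) highest. Replication-dependent histone genes, in 15 distinct bins, had 22.98 and 23.5 CPM with 23 of 69 above and 8 below, and keratin genes 20.5 and 20.4 CPM with 34 of 103 above and 47 below, KRT80 (122 and 127) highest. Adjusted for gene number, histone genes stood at -2.08 (log2) against the median gene.

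Genes of chromatin architecture had 20.4 and 19.8 CPM, with 7 of 20 above and 7 below. LMNA, which encodes lamins A and C, had 139 and 141 CPM and CTCF, the insulator protein, 36.7 and 36.1. The cohesin subunit RAD21 had 5.32 and 4.88 CPM, its loader NIPBL 4.91 and 4.71 and PDS5B 4.51 and 4.04. In the bin of the gene start alone this list stood 0.52 (log2) above the median gene, and adjusted for gene number 0.89 above it.

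Markers of liver, blood and muscle had 11.03 and 9.23 CPM, with 9 of 26 listed above and 15 below. CD4 had 89.3 and 92.5 CPM and the muscle regulator MYOD1 71.6 and 77.1, whereas the beta-globin HBB, with HBD and HBG1 in the same bin, had 1.91 and 1.46 CPM and AFP, a fetal liver protein gene, 2.22 and 2.59. ALB and SERPINA1 were unlisted. Some markers of other lineages were thus as high as noradrenergic genes, and the label of the cells was not tested by these levels.

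**Figure D5:**
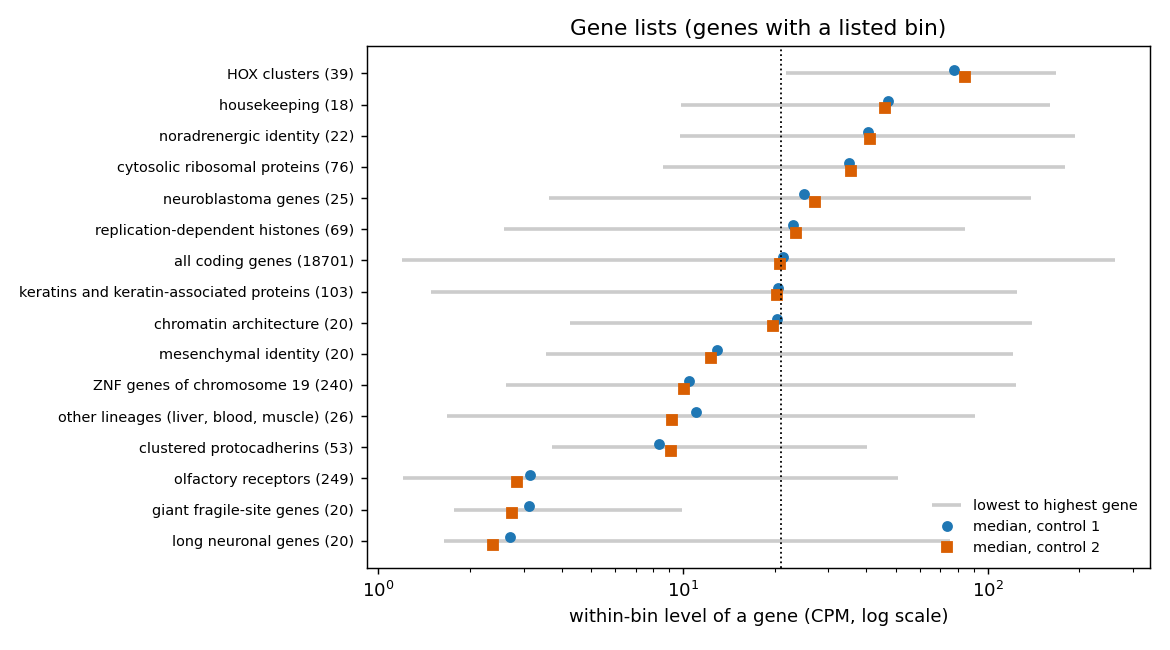
Within-bin level of genes (CPM, log scale) for 15 lists and all coding genes, with the number of genes with a listed bin in brackets; circles and squares are the medians of control 1 and control 2, grey lines span the lowest to the highest gene, and the dotted line is the median gene, 21.02 CPM. On this unadjusted scale HOX genes are highest (77.9 and 84.3 CPM), and long neuronal genes are lowest.

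Listed contacts over 100 kb or more reached 55.9% of coding genes, and the share followed the gene's own level, from 1.39% in the lowest decile of genes to 100% in the highest. Such a contact was found for 16 of 22 noradrenergic genes, 8 of 20 mesenchymal genes, 19 of 25 neuroblastoma genes, 38 of 39 HOX genes, 8 of 249 olfactory receptors and 0 of 53 protocadherins.

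The TH bin had 11 such contacts, the strongest over 250 kb to a bin of TSSC4, TRPM5 and KCNQ1, at 12.1 CPM in control 1 and 11.8 in control 2. RET had 17, the strongest over 100 kb to a gene-free bin (17.03 and 17.6 CPM), and DBH 12, the strongest over 100 kb to MYMK and ADAMTSL2 (8.67 and 10.2). GATA2 met RUVBL1 and EEFSEC over 300 kb (5.87 and 5.75). Each of these genes had a level of over 100 CPM.

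The other noradrenergic transcription factors named here had 1 to 5 such contacts. PHOX2A met CLPB over 200 kb at 6.17 and 5.99 CPM, HAND1 a gene-free bin over 150 kb at 9.19 and 9.24, and ISL1 a gene-free bin over 400 kb at 2.93 and 2.54. HAND2 met GALNT7 and HMGB2 over 200 kb at 2.02 and 2.00, and GATA3 had a contact over 1150 kb at 1.79 and 1.74. For ISL1 and HAND2 this was the only listed contact over 100 kb or more.

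MYCN had 12, the furthest over 600 kb to CYRIA (3.31 and 3.63 CPM) and the strongest over 100 kb to a gene-free bin (4.73 and 3.99). ODC1 met RRM2, a ribonucleotide reductase subunit gene, over 300 kb at 13.9 and 13.4 CPM. CCND1, the cyclin D1 gene, met a gene-free bin over 550 kb at 7.68 and 7.59 CPM. CAMTA1, a long gene of 21 bins on 1p, had 42, the strongest within its own body (6.53 and 6.65 CPM).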

How the data were processed

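Contacts were counted by the authors with HiC-Pro on hg38, per the submitters' processing notes, which give no versions; the deposited table holds raw counts per pair of 50 kb bins. Per the file headers it also holds the authors' log2 fold change and log2 mean abundance, an F score and p-values; of these, only the abundance was used here, to find that the list begins at -0.01. The 2 columns of the knockdown libraries were not used. Counts were scaled to CPM, counts-per-million of the listed contacts of the same library, and described with Python 3.11.15, pandas 2.3.3 and scipy 1.17.1; edgeR 4.0.16 in R 4.3.3 gave the TMM scaling of an alternative. Gene positions came from RefSeq GRCh38.p14, the same build. Windows of 1 Mb needed 5 listed bins, segments 10 windows and a penalty factor of 6. The segmentation was also tried on simulated windows of independent noise. Levels here run together along the chromosome, so that trial cannot tell how many of the steps are false. Arms were split at the longest unlisted run without a coding gene instead of the longest run of any kind, because the latter is the major histocompatibility complex on chromosome 6; acrocentric chromosomes were kept whole. Genes were named by rule: those of the 15 highest and 10 lowest gene-bearing bins, of the 3 strongest pairs per distance on either scale, at the largest steps and at the extremes of each list; others are said to be chosen after their values. Members and lists were chosen with earlier results of these data known. Alternatives were the scaling, other bin sets, gene counts, windows and penalties, and each library alone. Some genes of the named sets are not reported here.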

Additional observations from a re-analysis of the deposited data

How the results depend on the processing

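With either library left out, the median within-bin level was 6.84 to 7.20 CPM, the share of contacts within a bin 84.8934 to 84.9118%, the slope -1.27 to -1.26, the correlation with gene number 0.444 to 0.445 and the number of steps 27 to 28. The median level was 7.32 CPM on autosomes, 6.41 CPM in interior bins and 4.64 CPM with unlisted bins counted as lowest. The listed share was 91.9% for gene-bearing bins. Pairs at 50 kb had a median of 3.12 CPM, 3.39 CPM where both bins lay above the median, 6.25 CPM above the upper quartile, and a mean of 4.71 CPM. The correlation was 0.393 with gene starts and 0.431 with all annotated genes. The 4 arms described as gained minus the others, which include 2p, gave 0.52 (log2). This difference was 0.53 without the adjustment, 0.55 in gene-free bins and 0.63 with all contacts of a bin. With the arm split first written, an alternative added after seeing the data, it was 0.48. Steps numbered 44 without the adjustment, 18 in gene-free bins, 15 with 2 Mb windows and 13 with a stricter penalty. Of the 100 strongest pairs over 100 kb or more, 37 lay on chromosome 7 or 17q, and 13 when ranked relative to within-bin contacts. Of 75 list values under alternatives 71 kept their direction; adjustment for gene number reversed mesenchymal (0.10), chromatin architecture (0.89) and histone genes (-2.08), and the start bin reversed chromatin architecture (0.52). The cause of these changes was not tested. No paired analysis was possible because only 1 group was used. GC content of bins and CTCF motifs were not run, as they need a genome. Low bins varied most between the libraries: the log2 ratio had an SD of 0.334 in the lowest decile, where counting alone gives 0.125.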
